A study of Mus musculus with 2 samples.

Results

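The 7 genes described here are *Isg15*, *Uba7*, *Ube2l6*, *Herc6* and *Usp18*, which encode the modifier ISG15 and the enzymes that attach and remove it, and the chromosome neighbours *Rsad2* and *Cmpk2*. They were taken by name from both count matrices, and all 7 were found among the 55357 genes listed. The cells were CD45+ cells sorted from subcutaneous MC38 tumours, a mouse colon adenocarcinoma line, and profiled by 10x Genomics 3' v3 sequencing in 1 library from UEIS KI mice and 1 library from UEIS LSL mice. All mice were C57BL/6 and carried the same tumour line, and what KI and LSL stand for, the cells in which any allele was active, age, sex and the number of mice pooled are not given in the sources used here. The series title ties the micropeptide UEIS to weaker cGAS-STING and type I interferon signalling, which is the question these interferon-induced genes bear on.

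ISG15 is a ubiquitin-like protein whose gene is among the most strongly induced by type I interferon. UBA7 activates it, UBE2L6 carries it and, in the mouse, HERC6 is the main ligase that joins it to proteins, while USP18 removes it and also blocks signalling at the interferon receptor. *Rsad2* encodes viperin, a radical SAM enzyme that turns CTP into a chain-terminating nucleotide, and *Cmpk2* encodes a mitochondrial kinase of UMP and CMP. In tumours, macrophages and dendritic cells are well-known sources of interferon-induced transcripts.

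On GRCm38 the members lie at chr4:156199424-156200818 (*Isg15*, ENSMUSG00000035692), chr6:121245906-121270917 (*Usp18*, ENSMUSG00000030107), chr6:57581000-57664632 (*Herc6*, ENSMUSG00000029798), chr9:107975505-107984060 (*Uba7*, ENSMUSG00000032596) and chr2:84798828-84810335 (*Ube2l6*, ENSMUSG00000027078). *Rsad2* (ENSMUSG00000020641) is on the minus strand at chr12:26442746-26456452 and *Cmpk2* (ENSMUSG00000020638) on the plus strand at chr12:26469204-26479837, so that the genes point away from each other with 12752 bases between their starts. All 7 are annotated as protein-coding, and UMIs over a whole gene do not separate exons, introns or untranslated parts. *Usp18* and *Herc6* overlap an annotated gene on the opposite strand (*Gm44148* and *Gm19244*), and *Herc6* and *Uba7* overlap one on their own strand (*Gm45193* and *Gm20661*), so the values of these 3 members are uncertain to that extent.

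The promoters of *Isg15*, *Rsad2* and *Cmpk2* are shown because these genes moved together across macrophage-like cells, a class described below. The neighbours *Rsad2* and *Cmpk2* moved together there as well, but differed in size of change between the libraries. The part of the promoters in these patterns was not tested. They are RefSeq sequences on GRCm38.p6, 300 bases from 250 before the start to 50 after it, read along the gene, with capitals marking matches to the interferon-response spacings GAAANNGAAA and GAAANNNGAAA on either strand. *Isg15* (chr4:156200769-156201068, minus strand) and *Rsad2* (chr12:26456403-26456702, minus strand) hold matches, and *Cmpk2* (chr12:26468965-26469264, plus strand) holds none.
Isg15: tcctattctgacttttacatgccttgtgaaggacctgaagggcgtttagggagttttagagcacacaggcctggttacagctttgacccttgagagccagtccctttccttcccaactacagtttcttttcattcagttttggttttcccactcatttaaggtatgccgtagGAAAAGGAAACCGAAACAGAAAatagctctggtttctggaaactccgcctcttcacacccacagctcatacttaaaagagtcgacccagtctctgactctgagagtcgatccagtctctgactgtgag
Rsad2: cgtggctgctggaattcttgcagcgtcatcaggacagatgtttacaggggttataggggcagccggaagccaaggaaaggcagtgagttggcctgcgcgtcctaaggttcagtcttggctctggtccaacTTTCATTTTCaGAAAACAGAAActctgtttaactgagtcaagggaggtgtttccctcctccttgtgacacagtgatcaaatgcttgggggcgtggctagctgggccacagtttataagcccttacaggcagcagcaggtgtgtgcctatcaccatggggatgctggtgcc
Cmpk2: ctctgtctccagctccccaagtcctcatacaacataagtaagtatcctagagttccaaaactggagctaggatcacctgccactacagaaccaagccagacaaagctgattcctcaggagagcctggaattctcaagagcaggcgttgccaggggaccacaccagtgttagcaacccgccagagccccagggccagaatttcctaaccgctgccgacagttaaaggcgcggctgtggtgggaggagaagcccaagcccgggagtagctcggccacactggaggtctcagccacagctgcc
The capitals of *Isg15* are 3 overlapping matches to GAAANNGAAA, from 78 to 57 bases before the start. Those of *Rsad2* are 1 match to GAAANNGAAA on the opposite strand, from 120 to 111 bases before the start, and 1 match to GAAANNNGAAA on the same strand, from 109 to 99 bases before it. RefSeq promoters were found for 6 of the 7 members, and those of *Herc6*, *Uba7* and *Ube2l6* held neither spacing. Among 32851 RefSeq promoters of this length, 3.44% held GAAANNGAAA, 2.75% held GAAANNNGAAA and 5.99% held either. A match is a description of letters and does not show binding.

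The UEIS KI library held 9734 barcodes and 99404988 UMIs (unique molecular identifiers, each counting 1 captured RNA molecule), and the UEIS LSL library 9527 barcodes and 92764697 UMIs. Quality limits and doublet removal left 8685 cells with 10329 UMIs of the 7 genes in UEIS KI and 8646 cells with 22132 in UEIS LSL. The libraries shared 34 barcode sequences. With 1 library a group there is no test, and the 95% intervals given cover counting error alone and leave out how mice vary.

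Cells were placed in classes by the UMIs of fixed markers, and a class is called "like" the cell its markers define. Macrophage-like cells were the largest class, with 5793 cells in UEIS KI and 5629 in UEIS LSL. Their median depths were 9479 UMIs in UEIS KI and 8660 in UEIS LSL. All 8 macrophage markers were detected in each library. These markers define the gate and were detected in every other class compared, so their detection does not test the class. UEIS KI also held 649 monocyte-like, 172 cDC2-like (type 2 conventional dendritic), 57 mature dendritic-like, 142 T cell-like, 94 neutrophil-like and 184 fibroblast-like cells. UEIS LSL held 551 monocyte-like, 264 cDC2-like, 93 mature dendritic-like, 159 T cell-like, 30 neutrophil-like and 335 fibroblast-like cells. The fibroblast-like cells went against the CD45 sort, since *Ptprc*, the CD45 gene, was seen in 7.07% of them in UEIS KI and 13.4% in UEIS LSL. No class was given to 1380 UEIS KI and 1314 UEIS LSL cells, and 130 UEIS KI and 201 UEIS LSL cells passed gates of several classes.

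In macrophage-like cells 5 of the 7 genes were lower in UEIS KI and none was higher, with *Rsad2*, *Isg15* and *Usp18* showing the largest differences. A gene was called lower or higher where the libraries differed at least 1.5-fold, the counting interval excluded no difference and both libraries together held at least 50 UMIs. By that rule 4.23% of the 13213 genes measured in this class were lower and 5.57% higher. Levels are UMIs per 1000000 UMIs of the class (CPM), and log2 ratios are UEIS KI over UEIS LSL.

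*Isg15*, the modifier itself, had 43.2 CPM in UEIS KI (95% interval 41.6 to 44.9) and 110.9 CPM in UEIS LSL (108.1 to 113.7), a log2 ratio of -1.36 (-1.43 to -1.29). *Usp18*, the protease, had 6.00 CPM in UEIS KI and 15.3 CPM in UEIS LSL, a log2 ratio of -1.35 (-1.53 to -1.17). The modifier and its protease were lower by close factors, 2.57-fold and 2.55-fold, and the intervals overlapped.

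The conjugating enzymes differed less. The ligase *Herc6* had 7.17 CPM in UEIS KI and 11.3 CPM in UEIS LSL, a log2 ratio of -0.66 (-0.84 to -0.48) that met the rule. The activating enzyme *Uba7* had 9.09 CPM in UEIS KI and 12.3 CPM in UEIS LSL, a log2 ratio of -0.43 (-0.60 to -0.27), and the carrier *Ube2l6* had 25.6 CPM in UEIS KI and 34.2 CPM in UEIS LSL, a log2 ratio of -0.42 (-0.51 to -0.32). Both of these intervals lay below 0, but neither gene reached 1.5-fold.

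*Rsad2* had 19.4 CPM in UEIS KI (18.3 to 20.5) and 59.4 CPM in UEIS LSL (57.3 to 61.4), a log2 ratio of -1.62 (-1.71 to -1.52). Its neighbour *Cmpk2* had 4.56 CPM in UEIS KI (4.04 to 5.13) and 7.83 CPM in UEIS LSL (7.10 to 8.61), a log2 ratio of -0.78 (-1.004 to -0.56). The intervals of the neighbours' ratios did not overlap.

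The macrophage gate took in cells of 11 clusters. In 5 of them (1, 4, 5, 7 and 8) more of the 10 leading genes were markers of another class than of macrophages. Cluster 4 held 4 cDC2 markers and cluster 5 held 5 monocyte markers. Clusters 1, 7 and 8 held only 1 marker of another class each, against 0 of macrophages. With classes taken from whole clusters, clusters 1 and 7 were still typed as macrophage and cluster 8 had no class. Without these 5 clusters, an alternative chosen after the data were seen, the log2 ratios were -1.57 for *Isg15*, -1.53 for *Usp18*, -0.86 for *Herc6*, -0.37 for *Uba7*, -0.43 for *Ube2l6*, -1.77 for *Rsad2* and -0.72 for *Cmpk2*, and again 5 of the 7 met the rule.

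**Figure D1:**
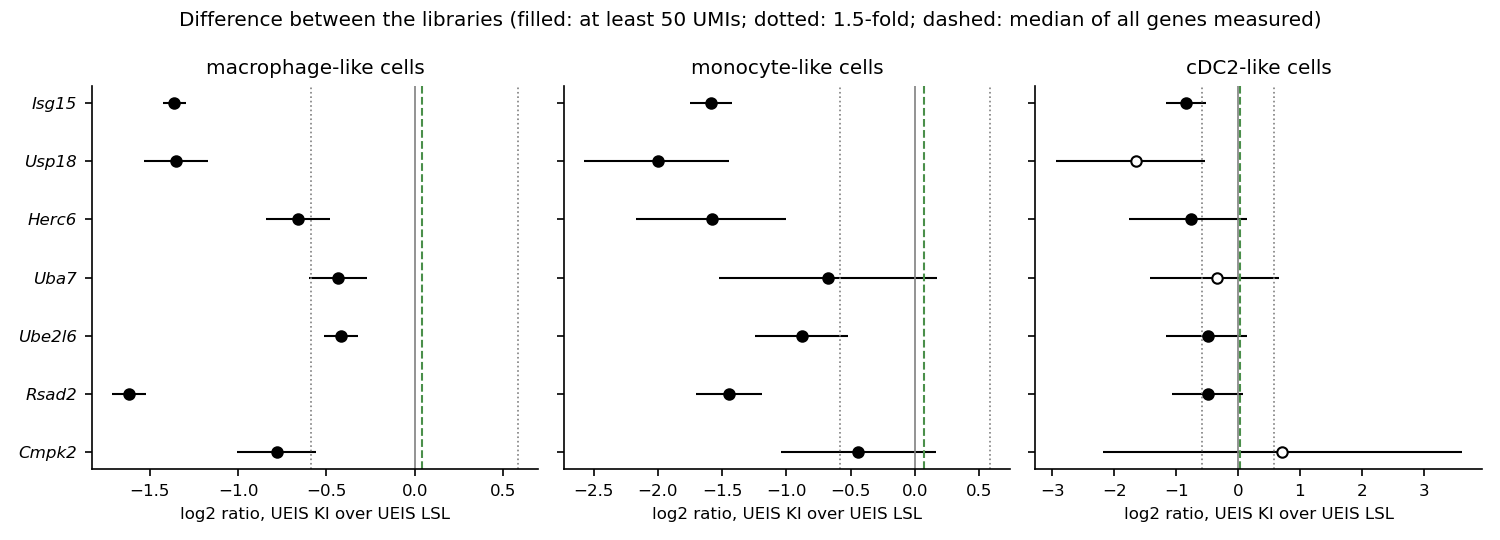
Log2 ratio of UEIS KI over UEIS LSL (x axis) for the 7 genes (y axis) in macrophage-like, monocyte-like and cDC2-like cells; points are ratios of summed UMIs, bars exact 95% counting intervals, filled points genes with at least 50 UMIs, dotted lines 1.5-fold and the dashed line the median of all genes measured. In macrophage-like cells all 7 points lie left of 0, between -1.62 for *Rsad2* and -0.42 for *Ube2l6*.

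By these gates, no member was higher in UEIS KI in any other class by the rule. In monocyte-like cells 5 of 7 genes were lower in UEIS KI and none was higher, against 4.38% lower and 5.71% higher of all genes measured there. *Isg15* had 118 CPM in UEIS KI and 354 CPM in UEIS LSL, a log2 ratio of -1.59 (-1.75 to -1.43), and *Usp18* had 9.43 CPM in UEIS KI and 37.7 CPM in UEIS LSL (-2.00). The ligase *Herc6* had 9.68 CPM in UEIS KI and 28.9 CPM in UEIS LSL (-1.58) and the carrier *Ube2l6* had 29.5 CPM in UEIS KI and 54.4 CPM in UEIS LSL (-0.88); both met the rule here. *Rsad2* had 49.1 CPM in UEIS KI and 134 CPM in UEIS LSL (-1.45). *Cmpk2*, at 12.9 CPM in UEIS KI and 17.5 CPM in UEIS LSL, and *Uba7*, at 6.21 CPM in UEIS KI and 9.89 CPM in UEIS LSL, had intervals that included 0.

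The monocyte-like class was not the same mix in both libraries. Cluster 6, led by *Mmp12* and *Mmp13*, held 4.78% of its cells in UEIS KI and 26.1% in UEIS LSL, and cluster 0, led by *Spp1*, held 53.0% in UEIS KI and 30.7% in UEIS LSL. Cluster 5, led by the monocyte genes *Plac8*, *Ly6c2*, *Chil3*, *Hp* and *Vcan*, held 36.8% in UEIS KI and 32.5% in UEIS LSL. Within cluster 5 *Isg15* had 161 CPM in UEIS KI and 176 CPM in UEIS LSL, a log2 ratio of -0.13 (-0.46 to 0.20), while *Rsad2* was higher in UEIS KI, at 80.5 CPM in UEIS KI and 45.1 CPM in UEIS LSL (0.84; 0.26 to 1.45). Within cluster 6 the monocyte-like cells had 336 CPM of *Isg15* in UEIS KI and 645 CPM in UEIS LSL (-0.94; -1.34 to -0.57), and 103 CPM of *Rsad2* in UEIS KI and 300.05 CPM in UEIS LSL (-1.54; -2.28 to -0.88). Within cluster 0 the monocyte-like cells had 51.5 CPM of *Isg15* in UEIS KI and 81.7 CPM in UEIS LSL (-0.67; -1.11 to -0.21). *Rsad2* there had 16.9 CPM in UEIS KI and 20.7 CPM in UEIS LSL (-0.30; -1.16 to 0.64). The part of the cluster mix in the class difference was not tested. With classes taken from whole clusters instead of gates, the monocyte-like log2 ratios were -0.24 for *Isg15*, -0.38 for *Usp18* and -0.13 for *Herc6*, and *Rsad2* turned to 0.34, while *Ube2l6* was at -0.79. In UEIS KI 6 of the 649 monocyte-like cells held 84.8% of the *Rsad2* UMIs, against 33.0% in the 6 highest of the 551 in UEIS LSL. Without the 1% of cells with most UMIs of the 7 genes the log2 ratio of *Rsad2* was -3.34 and that of *Cmpk2* -2.22, and with a stricter gate *Rsad2* was at -0.81 and *Cmpk2* at 0.69. The size of the monocyte-like *Rsad2* difference thus depended on few cells and on the gate. The transcripts *Lyz2*, *Apoe*, *Ctsb* and *Spp1* were kept out of every gate. Their sum stood in this class at 74.1% of its macrophage level in UEIS KI and 86.9% in UEIS LSL. *Lyz2* alone stood at 105% in UEIS KI and 110% in UEIS LSL, and *Apoe* at 44.4% in UEIS KI and 46.1% in UEIS LSL. The sum is therefore not a measure of macrophage RNA alone.

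In cDC2-like cells 4 members were measured and 1 was lower, against 2.58% lower and 2.81% higher of all genes: *Isg15*, with 75.2 CPM in UEIS KI and 134 CPM in UEIS LSL (-0.83; -1.16 to -0.51). *Rsad2* there had 26.5 CPM in UEIS KI and 36.9 CPM in UEIS LSL, with an interval that included 0, and its log2 ratio moved to -2.90 with a stricter gate and -1.81 with classes from clusters, against -0.48 by the gate. Thinned to 1000 and 4000 UMIs, cDC2-like *Isg15* was at -0.50 and -0.55, short of 1.5-fold. In mature dendritic-like cells both measured members were lower, against 2.87% lower and 5.9% higher of all genes. *Isg15* had 133 CPM in UEIS KI and 325 CPM in UEIS LSL (-1.29; -1.79 to -0.82), and *Ube2l6* had 79.1 CPM in UEIS KI and 147 CPM in UEIS LSL (-0.90; -1.57 to -0.26). The log2 ratio of *Ube2l6* was -0.12 after thinning to 1000 UMIs and -1.32 after thinning to 4000.

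The mature dendritic-like cells stood out for *Ube2l6* and, in UEIS KI, for *Uba7*. *Ube2l6* was higher there than in any other class of the same library, with intervals that did not overlap those of the next class. *Uba7* had its highest level there in both libraries, 48.0 CPM in UEIS KI from 17 UMIs and 34.5 CPM in UEIS LSL from 19 UMIs. In UEIS LSL the *Uba7* interval (20.8 to 53.9) overlapped that of T cell-like cells (7.66 to 25.9). *Rsad2* had only 2 UMIs in the 57 UEIS KI cells and 7 in the 93 UEIS LSL cells, and *Cmpk2* had 0 UMIs in UEIS KI and 1 in UEIS LSL. A count of 0 is read here as under 3 UMIs. With so few UMIs, the *Rsad2* interval lay below that of macrophage-like cells in UEIS LSL and overlapped it in UEIS KI, and the *Cmpk2* intervals included the macrophage level in both libraries.

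T cell-like cells had the highest *Isg15* level of the 7 classes compared in UEIS KI, 271 CPM, and 324 CPM in UEIS LSL, with an interval of the ratio that included 0 (-0.26; -0.57 to 0.05). *Rsad2*, at 88.3 CPM in UEIS KI and 141 CPM in UEIS LSL (-0.67; -1.22 to -0.16), was the 1 of 2 measured members that was lower, against 5.61% lower and 4.58% higher of all genes. A single UEIS KI cell held 83.7% of the 43 *Rsad2* UMIs, and 2 UEIS LSL cells held 59.6% of the 114. The log2 ratio of *Rsad2* was 1.23 with a stricter gate, -2.28 without the 1% of cells with most UMIs of the 7 genes, -1.97 after thinning to 1000 UMIs and -1.55 with every cell counted alike. That of *Isg15* was 0.17 after thinning to 1000 UMIs and -1.14 after thinning to 4000. The sum of *Lyz2*, *Apoe*, *Ctsb* and *Spp1* stood in T cell-like cells at 28.5% of its macrophage level in UEIS KI and 42.5% in UEIS LSL. The part of macrophage RNA in the T cell values was not tested. *Isg15* was above its own macrophage level in each library.

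Neutrophil-like cells had 263 CPM of *Isg15* in UEIS KI and 532 CPM in UEIS LSL, from 65 UMIs in UEIS KI and 30 in UEIS LSL (-1.02; -1.66 to -0.34), the only member measured, against 7.97% lower and 8.19% higher of all genes. *Rsad2* there had 14 UMIs in UEIS KI and 23 in UEIS LSL, below the 50 that a ratio needs. Fibroblast-like cells had the lowest *Isg15* level of the 7 classes in both libraries. There 2 of 3 measured members were lower, against 6.99% lower and 5.3% higher of all genes: *Isg15*, with 17.3 CPM in UEIS KI and 52.0 CPM in UEIS LSL (-1.58; -2.00 to -1.19), and *Ube2l6*, with 19.8 CPM in UEIS KI and 42.5 CPM in UEIS LSL (-1.10; -1.49 to -0.72). The log2 ratio of *Ube2l6* was -0.35 after thinning to 1000 UMIs and -1.73 after thinning to 4000. *Herc6* there had 6.06 CPM in UEIS KI and 5.21 CPM in UEIS LSL. The sum of *Lyz2*, *Apoe*, *Ctsb* and *Spp1* stood in neutrophil-like cells at 32.9% of its macrophage level in UEIS KI and 39.2% in UEIS LSL. In fibroblast-like cells it stood at 14.1% in UEIS KI and 12.5% in UEIS LSL. There *Lyz2* alone stood at 3.24% in UEIS KI and 4.34% in UEIS LSL, and *Spp1* at 25.1% in UEIS KI and 40.6% in UEIS LSL. The part of macrophage RNA in these classes was not tested.

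The order of the classes for *Isg15* in UEIS KI was T cell-like, neutrophil-like, mature dendritic-like, monocyte-like, cDC2-like, macrophage-like and fibroblast-like, and neighbours overlapped only between the first pair and between mature dendritic-like and monocyte-like. In UEIS LSL the neutrophil-like, monocyte-like, mature dendritic-like and T cell-like levels overlapped, and the other 3 followed in the same order without overlap. Natural killer-like cells were too few for a ratio, with 10 *Isg15* UMIs in 21 UEIS KI cells and 69 in 28 UEIS LSL cells. In B cell-like cells *Isg15* had 3 UMIs in 52 UEIS KI cells and 6 in 23 UEIS LSL cells.

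**Figure D2:**
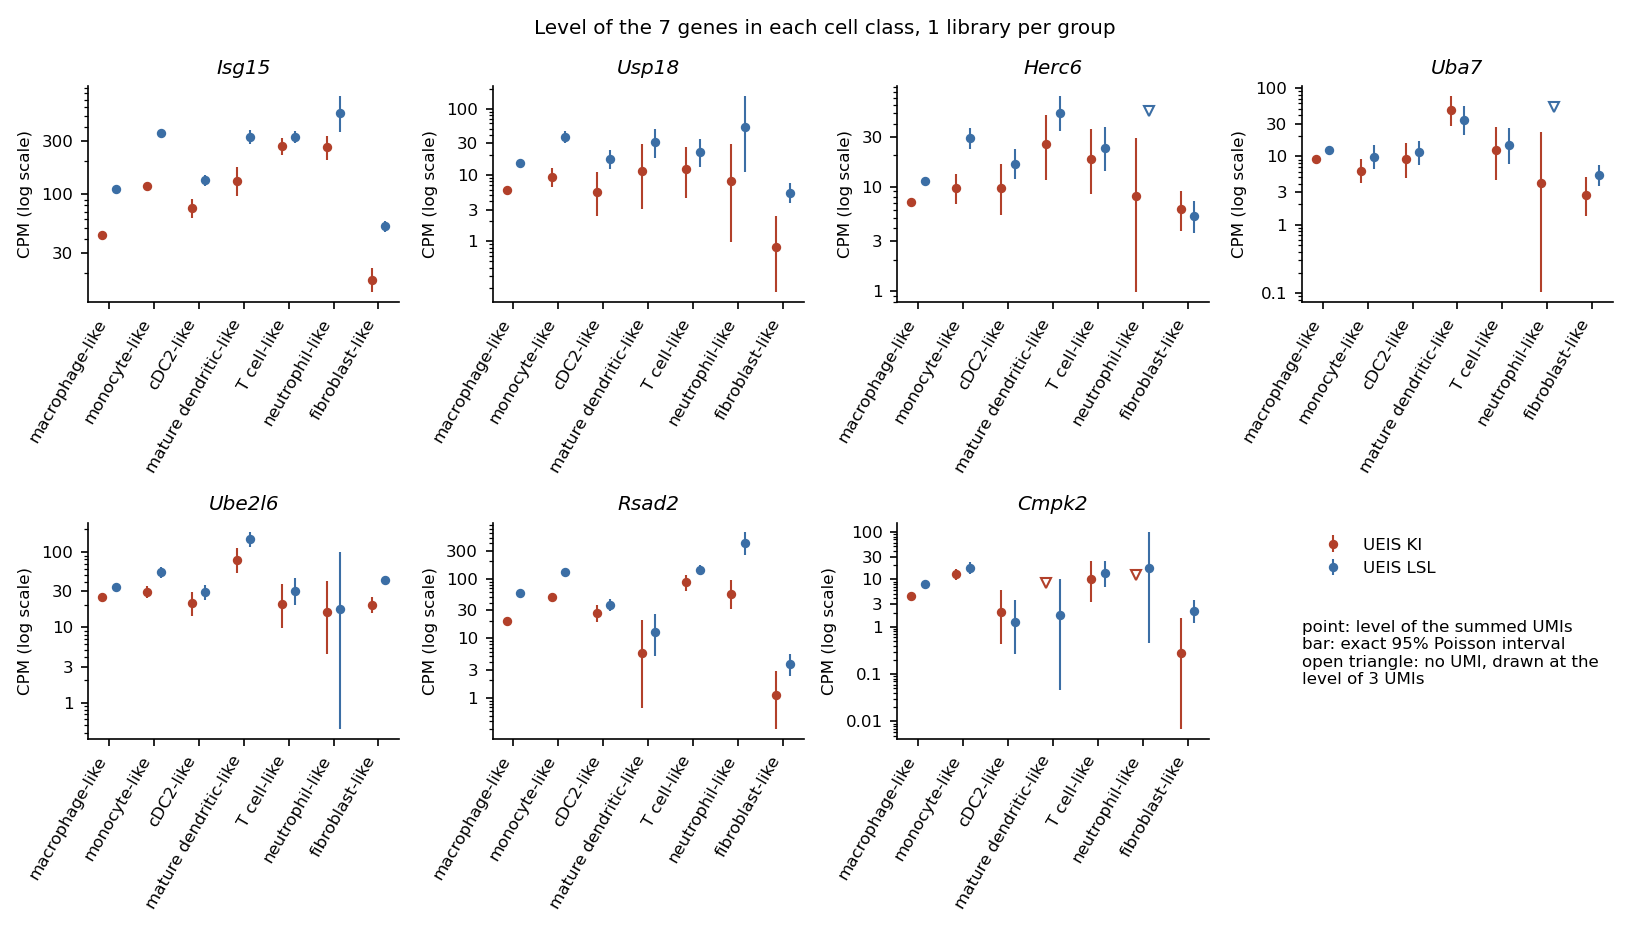
Level in CPM on a log scale (y axis) of each of the 7 genes in 7 cell classes (x axis), with UEIS KI left of UEIS LSL; points are levels of summed UMIs and bars exact 95% Poisson intervals, and an open triangle stands for no UMI at the level of 3 UMIs. In mature dendritic-like cells *Ube2l6* stands at 79.1 CPM in UEIS KI and 147 CPM in UEIS LSL, while *Rsad2* stands at 5.65 CPM in UEIS KI and 12.7 CPM in UEIS LSL.

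Split by cluster number, the macrophage-gated cells did not all show the difference. *Isg15* was measured in 11 clusters, and its interval lay below 0 in 8, above 0 in 1 and included 0 in 2. Cluster 6, led by *Mmp12*, *Hmox1* and the hypoxia-responsive genes *Hilpda* and *Ero1a*, had 97.4 CPM in 486 UEIS KI cells and 372 CPM in 791 UEIS LSL cells (-1.93; -2.08 to -1.79). Clusters 2 and 3 shared the leading genes *Fcrls* and *Ms4a7*. The leading genes of cluster 2 also held the cell cycle genes *Pclaf*, *Stmn1* and *Top2a*, and cluster 3 was led by *Ccl12*. Both clusters were level for *Isg15*. Cluster 2 had 32.4 CPM in UEIS KI and 31.7 CPM in UEIS LSL, and cluster 3 had 40.2 CPM in UEIS KI and 39.2 CPM in UEIS LSL. Cluster 8, led by the osteoclast genes *Ctsk*, *Acp5* and *Nfatc1*, had more *Isg15* in UEIS KI, 28.5 CPM in UEIS KI and 14.5 CPM in UEIS LSL (0.97; 0.34 to 1.66).

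*Rsad2* ran in both directions. In cluster 6 it had 75.2 CPM in UEIS KI and 269 CPM in UEIS LSL (-1.84; -2.01 to -1.67), and in cluster 7, led by *Cxcl9*, *Gbp2* and *Cxcl10*, it had 8.62 CPM in UEIS KI and 96.9 CPM in UEIS LSL (-3.49; -4.20 to -2.86). In cluster 2 it had 16.04 CPM in UEIS KI and 4.69 CPM in UEIS LSL (1.77; 1.23 to 2.35), and in cluster 3 it had 21.3 CPM in UEIS KI and 8.74 CPM in UEIS LSL (1.29; 0.92 to 1.68), while *Isg15* in the same clusters was level. *Cmpk2* followed its neighbour in these clusters, with 5.63 CPM in UEIS KI and 2.50 CPM in UEIS LSL in cluster 3 (1.17; 0.47 to 1.94) and 7.78 CPM in UEIS KI and 26.7 CPM in UEIS LSL in cluster 6 (-1.78; -2.34 to -1.26).

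*Usp18* was below 0 in 4 of 7 measured clusters and above in none, with its lowest ratio in cluster 7, at 2.46 CPM in UEIS KI and 21.6 CPM in UEIS LSL (-3.13; -4.62 to -1.94). *Herc6* and *Uba7* were each below 0 in 2 of 7 clusters, and *Ube2l6* in 4 of 10, and none of the 3 was above 0 in a measured cluster. When every cluster carried the same weight in UEIS KI as in UEIS LSL, the log2 ratios of macrophage-like cells were -1.05 for *Isg15*, -1.30 for *Usp18*, -0.47 for *Herc6*, -0.33 for *Uba7*, -0.34 for *Ube2l6*, -1.20 for *Rsad2* and -0.54 for *Cmpk2*, so that 3 members, *Isg15*, *Usp18* and *Rsad2*, remained at least 1.5-fold lower.

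**Figure D3:**
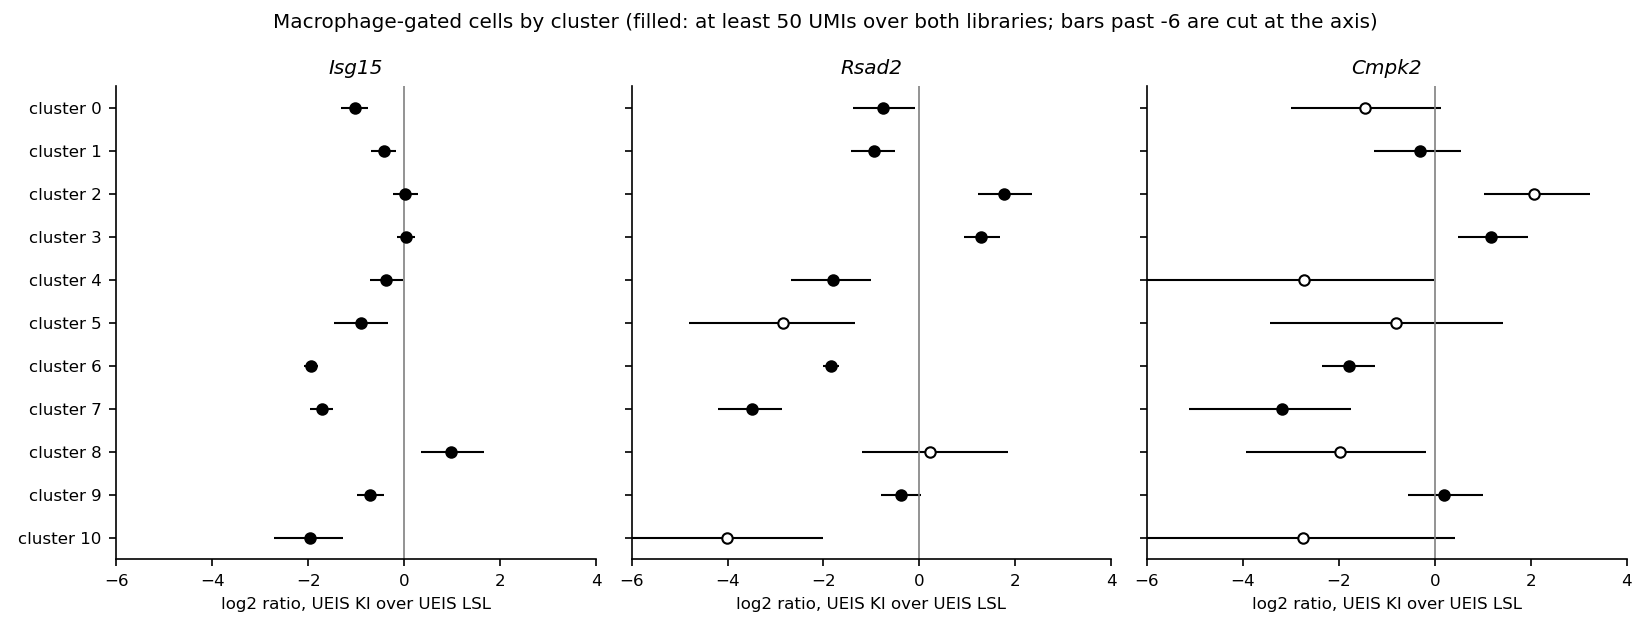
Log2 ratio of UEIS KI over UEIS LSL (x axis) for *Isg15*, *Rsad2* and *Cmpk2* in 11 clusters of macrophage-gated cells (y axis); bars are exact 95% counting intervals and filled points have at least 50 UMIs. *Rsad2* runs from -3.49 in cluster 7 to 1.77 in cluster 2 among filled points, while *Isg15* lies near 0 in clusters 2 and 3.

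The UMIs of these genes sat in few cells. Before thinning, *Rsad2* was seen in 254 of 5793 macrophage-like cells in UEIS KI and in 539 of 5629 in UEIS LSL, and cells with at least 10 UMIs, 35 in UEIS KI and 70 in UEIS LSL, held 62.6% of its UMIs in UEIS KI and 66.4% in UEIS LSL. For *Isg15* the 59 UEIS KI and 123 UEIS LSL cells with at least 10 UMIs held 47.8% of its UMIs in UEIS KI and 50.9% in UEIS LSL. *Ube2l6*, *Uba7* and *Herc6* had no cell with 10 UMIs, with highest counts per cell of 9, 3 and 4 in UEIS KI and 8, 3 and 6 in UEIS LSL. The 1% of cells with most *Usp18* UMIs held 63.7% of them in UEIS KI and 37.6% in UEIS LSL. For *Cmpk2* these shares were 73.0% and 64.0%, for *Rsad2* 75% and 61.8%, and for *Isg15* 47.4% and 36.1%. Those of *Herc6*, *Uba7* and *Ube2l6* lay between 11.3% and 23.4%. Both measures depend on the level of a gene. *Isg15*, *Rsad2*, *Usp18* and *Cmpk2* were thus more concentrated in small sets of cells than the conjugating enzymes.

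With every cell thinned to 4000 UMIs, which left out 786 UEIS KI and 691 UEIS LSL macrophage-like cells, *Isg15* was seen in 8.47% of cells in UEIS KI (7.71 to 9.27) and 17.2% in UEIS LSL (16.2 to 18.3). *Rsad2* was seen in 2.74% in UEIS KI and 6.30% in UEIS LSL, and *Usp18* in 1.78% in UEIS KI and 4.48% in UEIS LSL. The intervals of these 3 genes, and those of *Herc6* and *Uba7*, did not overlap between the libraries, while those of *Cmpk2* and *Ube2l6* did. *Cmpk2* was seen in 1.42% in UEIS KI and 2.11% in UEIS LSL, *Herc6* in 2.76% in UEIS KI and 4.17% in UEIS LSL, *Uba7* in 3.24% in UEIS KI and 4.43% in UEIS LSL, and *Ube2l6* in 10.4% in UEIS KI and 11.97% in UEIS LSL. Without thinning *Isg15* was seen in 15.9% of cells in UEIS KI and 27.9% in UEIS LSL, and *Rsad2* in 4.38% in UEIS KI and 9.58% in UEIS LSL. No member was seen in 75.8% of UEIS KI cells and 66.1% of UEIS LSL cells, and exactly 6 of the 7 in 5 UEIS KI and 14 UEIS LSL cells.

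The same shares were taken in fibroblast-like cells, whose median depths were 16809.5 UMIs in UEIS KI and 17014 in UEIS LSL before thinning. Thinning takes a larger part of the UMIs from these deeper cells, so the comparison cannot measure free RNA. *Rsad2* was seen in 1.12% of them in UEIS KI (0.136 to 3.9997) and 0.637% in UEIS LSL (0.0772 to 2.28). The macrophage share lay above that of fibroblast-like cells in both libraries, with overlapping intervals in UEIS KI (2.30 to 3.23 in macrophage-like cells) and no overlap in UEIS LSL (5.64 to 7.01). *Isg15*, which many cell types express, was seen in 5.06% of fibroblast-like cells in UEIS KI and 12.1% in UEIS LSL. Without thinning, *Rsad2* was seen in 1.63% of fibroblast-like cells in UEIS KI and 2.69% in UEIS LSL. *Isg15* was then seen in 17.9% in UEIS KI and 31.6% in UEIS LSL, above the unthinned macrophage shares of 15.9% in UEIS KI and 27.9% in UEIS LSL.

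Among single cells, *Rsad2* and *Usp18* were seen more often in cells with *Isg15* than in cells without it. Of 424 UEIS KI macrophage-like cells with *Isg15*, 16.04% had *Rsad2* (12.7 to 19.9), against 1.51% of the cells without *Isg15*; of 850 UEIS LSL cells with *Isg15* the share was 23.1% (20.3 to 26.0), against 2.81%. *Usp18* was seen in 11.8% of *Isg15*-positive and 0.851% of *Isg15*-negative cells in UEIS KI, and in 16.7% and 1.93% in UEIS LSL. The gap was smaller for the enzymes. *Herc6* was in 5.42% of *Isg15*-positive and 2.51% of *Isg15*-negative cells in UEIS KI and in 9.18% and 3.13% in UEIS LSL. *Ube2l6* was in 17.5% of *Isg15*-positive and 9.75% of *Isg15*-negative cells in UEIS KI and in 20.2% and 10.2% in UEIS LSL. *Uba7* was in 4.72% and 3.10% in UEIS KI, intervals that overlapped, and in 6.94% and 3.91% in UEIS LSL.

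Read the other way, *Isg15* was seen in 49.6% of the 137 *Rsad2*-positive UEIS KI cells (41.0 to 58.3) and in 63.0% of the 311 in UEIS LSL (57.4 to 68.4). Over single cells Pearson's r of log2(UMIs + 1) between *Isg15* and *Rsad2* was 0.54 in both libraries (5007 cells in UEIS KI and 4938 in UEIS LSL, cells of 1 library each), a description that carries no test.

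**Figure D4:**
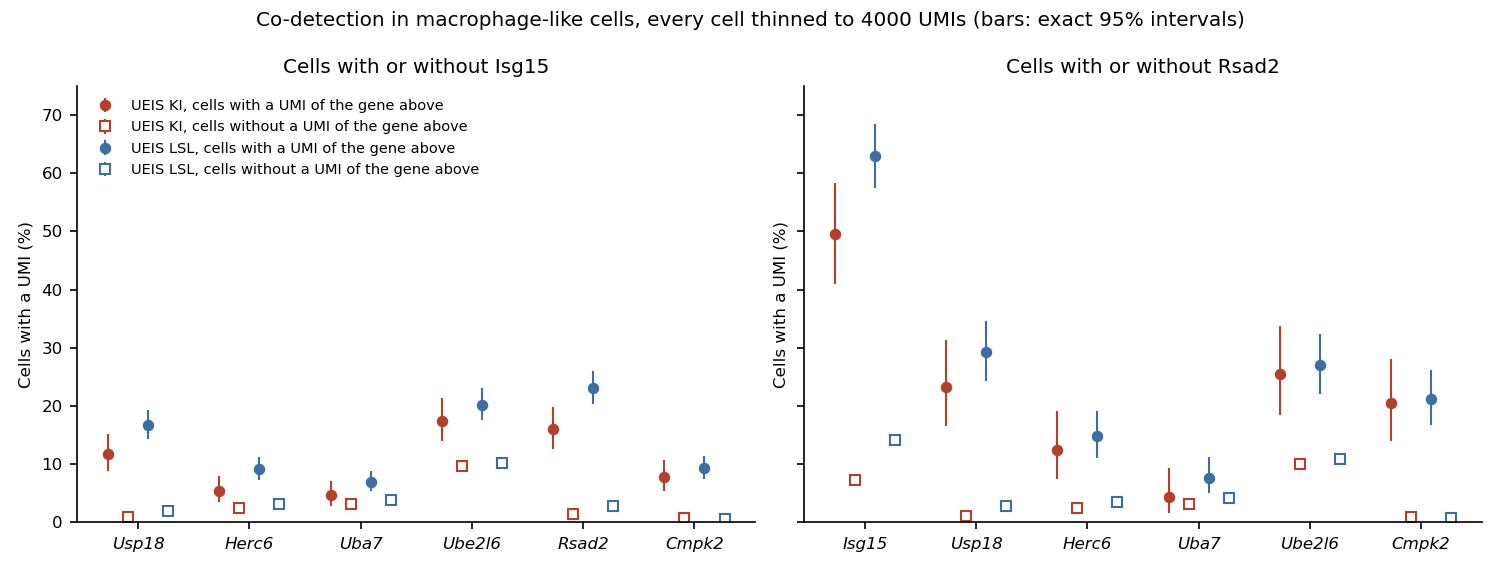
Share of macrophage-like cells with a UMI (y axis, %) of each other gene (x axis) among cells with (filled circles) and without (open squares) *Isg15* on the left and *Rsad2* on the right, after thinning to 4000 UMIs; UEIS KI is left of UEIS LSL and bars are exact 95% intervals. *Isg15* was seen in 49.6% of *Rsad2*-positive UEIS KI cells and 63.0% of those of UEIS LSL, while *Uba7* was seen in 4.72% of *Isg15*-positive and 3.10% of *Isg15*-negative UEIS KI cells.

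At this depth the neighbours *Rsad2* and *Cmpk2* were often not seen in the same cell. Each was nevertheless seen more often in cells with the other than in cells without it. Both were seen in 28 UEIS KI and 66 UEIS LSL macrophage-like cells, *Rsad2* alone in 109 UEIS KI and 245 UEIS LSL cells, and *Cmpk2* alone in 43 UEIS KI and 38 UEIS LSL cells. *Cmpk2* was seen in 20.4% of *Rsad2*-positive cells in UEIS KI (14.0 to 28.2) and 21.2% in UEIS LSL (16.8 to 26.2). These shares did not differ beyond counting error. In *Rsad2*-negative cells the *Cmpk2* share was 0.883% in UEIS KI and 0.821% in UEIS LSL. *Rsad2* was seen in 39.4% of the 71 *Cmpk2*-positive UEIS KI cells (28.0 to 51.7) and in 63.5% of the 104 in UEIS LSL (53.4 to 72.7). These intervals did not overlap. In *Cmpk2*-negative cells the *Rsad2* share was 2.21% in UEIS KI and 5.07% in UEIS LSL. Pearson's r of log2(UMIs + 1) between the neighbours was 0.48 in UEIS KI and 0.57 in UEIS LSL, without a test. *Isg15* accompanied 23 of the 28 UEIS KI and 61 of the 66 UEIS LSL cells with both neighbours, and 10 of the 43 UEIS KI and 18 of the 38 UEIS LSL cells with *Cmpk2* alone.

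Summed over macrophage-like cells there were 4.24 *Rsad2* UMIs per *Cmpk2* UMI in UEIS KI (3.72 to 4.85) and 7.58 in UEIS LSL (6.85 to 8.41). UMIs of different genes are captured unequally, so only the change of this ratio can be read. Single clusters hold fewer UMIs and give wider intervals. The ratio was 9.67 in UEIS KI (6.85 to 14.0) and 10.1 in UEIS LSL (8.62 to 11.9) in cluster 6, 3.03 in UEIS KI and 3.70 in UEIS LSL in cluster 2, and 2.43 in UEIS KI and 3.65 in UEIS LSL in cluster 9, and in each of the 7 clusters plotted the intervals of the libraries overlapped.

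**Figure D5:**
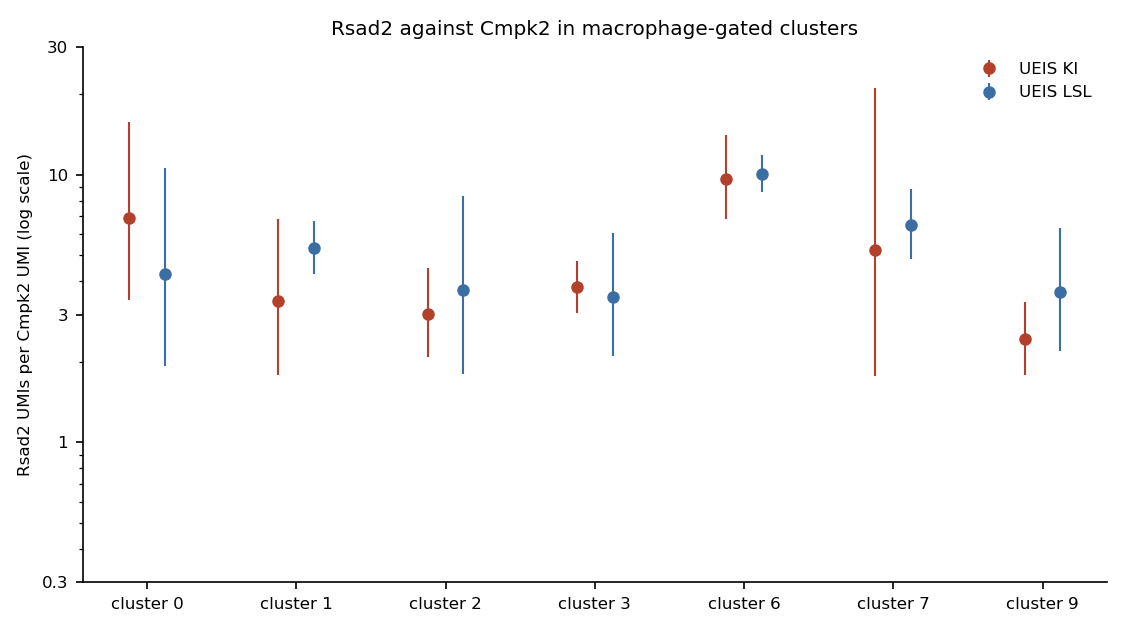
*Rsad2* UMIs per *Cmpk2* UMI on a log scale (y axis) in 7 clusters of macrophage-gated cells (x axis), UEIS KI left of UEIS LSL; bars are exact 95% counting intervals, and the 7 clusters have at least 20 UMIs of the pair in each library. Cluster 6 stands highest in both libraries, at 9.67 in UEIS KI and 10.1 in UEIS LSL.

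Among annotated genes that start within 250 kb of either neighbour, 1 other reached 50 UMIs over all cells, *Rnf144a*, a ubiquitin ligase gene on the side of *Rsad2*. It had 76 UMIs (0.877 CPM) in UEIS KI and 137 UMIs (1.71 CPM) in UEIS LSL, a log2 ratio of -0.96 (-1.38 to -0.55). Over the same cells *Rsad2* had 19.3 CPM in UEIS KI and 63.6 CPM in UEIS LSL and *Cmpk2* 4.45 CPM in UEIS KI and 8.08 CPM in UEIS LSL. The pseudogene *Gm46344* had 1 UMI in UEIS KI and none in UEIS LSL, and the other 8 annotated neighbours had none in either library.

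Other genes of the pathway were taken from lists chosen with earlier results of these data known. Of 39 other type I interferon-induced genes measured in macrophage-like cells, 28 were lower in UEIS KI and none higher, with a median log2 ratio of -0.85 against 0.04 for all genes measured. *Cxcl10*, a chemokine gene, had 107.8 CPM in UEIS KI and 255 CPM in UEIS LSL (-1.24), and *Ifitm3*, a membrane antiviral gene, had 727 CPM in UEIS KI and 1165 CPM in UEIS LSL (-0.68), whereas *Ifi27l2a* had 704 CPM in UEIS KI and 677 CPM in UEIS LSL (0.06) and *Bst2*, the tetherin gene, 207 CPM in UEIS KI and 264 CPM in UEIS LSL (-0.35).

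Of the 7 receptor and transcription factor genes, 3 were lower in macrophage-like cells. Among them *Irf9*, a subunit of the factor that drives these genes, had 22.0 CPM in UEIS KI and 36.5 CPM in UEIS LSL (-0.73), and *Stat2*, another of its subunits, had 11.3 CPM in UEIS KI and 18.5 CPM in UEIS LSL (-0.72). The receptor genes *Ifnar1* (82.4 CPM in UEIS KI and 98.5 CPM in UEIS LSL, -0.26) and *Ifnar2* (116 CPM in UEIS KI and 137 CPM in UEIS LSL, -0.24) and the kinase *Jak1* (110.5 CPM in UEIS KI and 114 CPM in UEIS LSL, -0.04) did not meet the rule.

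In macrophage-like cells the other 4 lists, of conjugation partners and enzyme relatives, held no gene called lower. A few genes of these lists were called in other classes, in either direction. None of 10 further ISG15 ligases and partners was lower or higher (median -0.02), including *Vcp* (244 CPM in UEIS KI and 237 CPM in UEIS LSL), *Ube2e1* (92.9 CPM in UEIS KI and 95.2 CPM in UEIS LSL), *Usp14* (89.7 CPM in UEIS KI and 91.5 CPM in UEIS LSL) and *Fbxw2* (59.1 CPM in UEIS KI and 61.5 CPM in UEIS LSL). Of 13 ubiquitin counterparts none was lower and 1 was higher, *Herc3*, with 7.53 CPM in UEIS KI and 3.56 CPM in UEIS LSL (median of the list 0.06). The ubiquitin genes *Ubb* and *Rps27a* had log2 ratios of -0.27 and -0.06.

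None of 14 nucleotide kinases and related enzymes beside *Cmpk2* was called in macrophage-like cells. *Cmpk1*, the cytosolic counterpart, was at 251 CPM in UEIS KI and 256 CPM in UEIS LSL (-0.03). *Nme1* was at 385 CPM in UEIS KI and 326 CPM in UEIS LSL (0.24). *Samhd1* was at 109.0 CPM in UEIS KI and 144 CPM in UEIS LSL (-0.41). Of 7 radical SAM enzymes beside *Rsad2* none was lower and 1 was higher, *Cdk5rap1*, with 9.43 CPM in UEIS KI and 2.78 CPM in UEIS LSL; *Lias*, *Tyw1*, *Elp3* and *Cdkal1* had log2 ratios between -0.06 and 0.21. *Irf9*, *Stat2*, *Herc3* and *Cdk5rap1* were named after their values were seen.

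Over the 15 class-by-library sums with at least 30 cells, the gene whose level was most like that of *Isg15* among 10925 genes was *Slc9a3r1* (Pearson's r of log2(CPM + 10) 0.89), followed by *Usp18* (0.88), *Gm44292* (0.86), *Irf9* (0.85) and *Arih2* (0.85). The genes most like *Rsad2* were *Ero1a* (0.93), *Ptger2* (0.91), *Snx18*, *Dusp1* and *Tnfsf14* (each 0.89). For *Cmpk2* they were *Atp5md* (0.89), *Ptger2*, *Slc23a2*, *Ifit3b* and *Rsad2* (each 0.84). The highest sums of *Isg15*, *Rsad2* and *Cmpk2* were those of UEIS LSL neutrophil-like cells, with 30, 23 and 1 UMIs from 30 cells. These rankings thus rest in part on few UMIs. Among the members, r over these sums was 0.86 between *Herc6* and *Uba7* and 0.82 between *Uba7* and *Ube2l6*, against -0.14 between *Uba7* and *Rsad2*. The highest *Uba7* sums, of mature dendritic-like cells, held 17 UMIs in UEIS KI and 19 in UEIS LSL. Over single macrophage-like cells the enzymes did not group this way. There r was 0.002 in UEIS KI and 0.016 in UEIS LSL between *Herc6* and *Uba7*. Between *Uba7* and *Ube2l6* it was 0.032 in UEIS KI and 0.028 in UEIS LSL. The 15 sums share 2 libraries and differ in depth, so their r values describe the pattern and carry no test.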

How the data were processed

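RNA in sorted CD45+ tumour cells was measured in 1 library per group. Raw UMI counts, with a value for each gene in each barcode, are what the authors deposited. For the pipeline, the submitters' processing notes give Cell Ranger 2.1.1 with the mm10 genome, but the header inside the matrix gives version 8.0.1. Which gene annotation they used is not given in the sources used here; GENCODE vM21 (GRCm38) supplied gene coordinates and contained 52081 (94.1%) of the 55357 identifiers. Barcodes needed at least 500 UMIs, at least 200 genes and at most 10% mitochondrial UMIs. Barcodes with the highest Scrublet scores, 0.8% per 1000 barcodes, or 758 in UEIS KI and 726 in UEIS LSL, were treated as doublets and removed. The 7 genes, the lists and the markers were chosen with earlier results of these data known.

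A class needed at least 3 distinct markers and, per 10000 UMIs of a cell, marker UMIs of at least 5 (T cell), 8 (natural killer), 15 (B cell, fibroblast, cDC2), 50 (neutrophil), 30 (mature dendritic) or 20 (monocyte, macrophage). Other classes also needed fewer than 40 macrophage marker UMIs (cDC2 under 20), and a macrophage-like cell needed more macrophage than monocyte or cDC2 marker UMIs. These limits were set after the data were seen; 3192 cells lay within 25% of the monocyte limit and 1208 of the macrophage limit. Leiden clusters (2000 variable genes, 30 components, 15 neighbours, resolution 1; scanpy 1.11.5) left the 7 genes and interferon lists out of the clustering genes.

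UMIs were summed per class and library and divided by the class total (CPM). Intervals are exact: Poisson for levels, conditional binomial for ratios and Clopper-Pearson for shares. Python 3.11.15 and scipy 1.17.1 were used, and the ratio calculation was tested on simulated counts. Named genes are all 7 members, the 4 members of each list with the highest macrophage level (some are not reported here), neighbours within 250 kb and the 5 genes most alike. Alternatives covered the gates, doublets, quality limits, scaling, depth, cell weights and cluster mix.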

Additional observations from a re-analysis of the deposited data

Results flagged for a closer look

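The clusters of macrophage-gated cells differed from one another in the direction of UEIS KI against UEIS LSL, and these differences between clusters were not tested. *Isg15* had log2 ratios of -1.97 in cluster 10 and 0.97 in cluster 8, the extremes of its 11 clusters. *Rsad2* had -3.49 in cluster 7 and 1.77 in cluster 2, the extremes of its 8 measured clusters. *Cmpk2* had -3.19 in cluster 7 and 1.17 in cluster 3, the extremes of its 5. Clusters 7 and 8 are among those whose leading genes held more markers of another class than of macrophages, in each by 1 marker against 0.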

How the results depend on the processing

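No paired analysis was possible because each group holds 1 library. In macrophage-like cells *Isg15*, *Rsad2* and *Cmpk2* kept a log2 ratio below 0 under every alternative run, but *Cmpk2* fell short of 1.5-fold in 3 of them (-0.58, -0.52 and -0.54 with a stricter gate, every cell counted alike and the same mix of clusters), and the cause of each shift was not tested. The log2 ratios of *Isg15* and *Rsad2* were -1.22 and -1.42 with a stricter marker gate and -1.54 and -1.77 with classes from clusters. They were -1.59 and -1.04 after thinning to 1000 UMIs and -1.05 and -1.20 with the same mix of clusters. Without the 1% of cells with most member UMIs they were -1.63 and -1.88. They were -1.57 and -1.77 without the 5 clusters that held more leading markers of another class than of macrophages. With called doublets kept *Isg15* was at -1.43. With every cell counted alike *Rsad2* was at -1.16. *Cmpk2* was at -1.04 without the 1% of cells with most member UMIs. The members at least 1.5-fold lower numbered 5, against 4 with a stricter gate, 4 with every cell counted alike and 3 with the same mix of clusters. After thinning to 1000 UMIs they again numbered 5, but *Herc6* was at -0.54 and *Uba7* at -0.77.

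The share of *Rsad2*-positive macrophage-like cells with *Cmpk2* was 41.4% in UEIS KI and 35.6% in UEIS LSL when at least 2 *Rsad2* UMIs were asked for, and in UEIS LSL 10.1% and 13.3% after thinning to 1000 and 2000 UMIs. *Rsad2* reversed in T cell-like cells with a stricter gate (1.23) and in monocyte-like cells with classes from clusters (0.34). Among other values for single genes and classes, 191 stayed within their counting interval under an alternative and 40 moved beyond it. Depth limits the classes with few cells: in mature dendritic-like, T cell-like and neutrophil-like cells at most 2 of 7 members reached 50 UMIs.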
